A study of Mus musculus with 35 samples.

Results

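Cathepsins are the proteases of the lysosome and cystatins are small proteins that inhibit many of them. The genes described here are 8 cathepsins (Ctsb, Ctsd, Ctss, Ctsz, Ctsl, Ctsa, Ctsc and Ctsh) and 2 cystatins (Cst7 and Cst3), chosen by symbol, and all 10 were found by identifier among the 45706 genes of the deposited tables. They were measured by bulk RNA sequencing of cells sorted on CD11b and CD45 from mouse spinal cord, a gate meant for microglia, in 35 libraries. The mice were a mixed C57BL/6J X C3HeJ F1 cross of both sexes, and all were kept on doxycycline (DOX) until 8 to 12 weeks of age.

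The disease mice were rNLS8 mice, labelled (+/+), in which the NEFH promoter drives the tetracycline transactivator tTA in neurons and tTA switches on a human TDP-43 transgene when DOX is removed from the diet. The transgene is thus made in neurons and not in the sorted cells by design. Early disease comprised 7 rNLS8 libraries after 2 weeks without DOX, late disease 7 after 6 weeks without it, and recovery 7 after 6 weeks without it and 1 week with it again. The 14 controls were 6 rNLS8 mice kept on DOX and 8 wild-type littermates, labelled (-/-), of which 4 had been without DOX for 2 weeks, 1 for 6 weeks, and 3 for 6 weeks followed by 1 week with it. The groups allow 3 stages to be set against control and against each other: transgene on briefly, on for long, and off again. The stages also differ in the time since DOX was first removed, and so in age. Recovery differs from late disease in DOX itself as well. Between stages, these cannot be told apart from the state of the transgene.

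Most cathepsins are made as inactive precursors, carried to the lysosome by mannose 6-phosphate or sortilin receptors, and activated there at acid pH. Cathepsin D is an aspartic protease, cathepsins B, L, S, Z, H and C are cysteine proteases, and cathepsin A is a serine carboxypeptidase that also protects beta-galactosidase and neuraminidase. Cystatin C, the product of Cst3, is secreted and blocks cysteine cathepsins outside the cell. Cystatin F, the product of Cst7, is directed to lysosomes of immune cells, where it acts on cathepsin C among others, and its gene is known as a marker of microglia that respond to amyloid, myelin loss or neuronal death.

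The libraries held between 13.9 M and 20.4 M expected counts each (M, counts times 1e6). The genes of the 2 sorting antigens were present throughout, Itgam (CD11b) with at least 15642 counts in every library and Ptprc (CD45) with at least 4597. All 12 homeostatic microglia markers were detected in each group, while the 6 neuron markers summed to at most 4.31 CPM (counts scaled to a library size of 1e6) in a library the oligodendrocyte markers to at most 242.8 CPM and the astrocyte markers to at most 2728 CPM. Against control, 11 of the 12 neutrophil markers tested rose in recovery and 1, Csf3r, in late disease. Without Csf3r the list's summed level had a median of 0.815 CPM in controls, 0.711 in early disease, 1.71 in late disease and 1695 in recovery. A marker low elsewhere can enter the test through recovery alone, so this count is a description. Of 8 monocyte markers 7 rose in recovery and 3 in late disease. Of 12 homeostatic microglia markers 6 fell in late disease and 0 in recovery. Over all genes tested, 2.87% rose and 1.1% fell in recovery, and 9.01% rose and 6.39% fell in late disease. The part of these markers in the results below was not tested. In bulk samples, fewer cells of a type and less RNA per cell cannot be told apart. All recovery libraries share 1 date code, 0803, that no other library has, so date and recovery cannot be told apart, and the 6 rNLS8 controls share the code 0810 with 3 wild-type controls. The share of transcripts outside the deposited TPM table (transcripts scaled to 1e6) was 18.3 ± 5.74% (SD, n = 9) in the controls of code 0810 and 4.99 ± 1.99% (n = 26) in all other libraries.

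Upstream sequences were compared for short motifs because several of the genes moved together. The 250 bases before each gene's start were taken from RefSeq's promoter table on GRCm38.p6, on the strand of the gene, for 8 of the 10 genes in 9 windows. Ctsb and Ctsh had no entry there and were not searched. Each was checked to run in the sense of a GENCODE transcript. An E-box with the letters CACGTG, the core of the element bound by the lysosomal regulator TFEB, was in 6.02% of 32841 windows of this length. It was in 3 of the 9 windows here, from Ctsd, Ctsl and Ctsa, 3 of the 8 genes. The sites stood 245 to 240 and 98 to 93 bases before the start of Ctsd, 236 to 231 before that of Ctsl, and 12 to 7 before the second listed start of Ctsa. Only the far Ctsd site lies before the start of its gene in GENCODE's annotation. The windows of Ctsl and of the second Ctsa start lie inside those genes. In the Ctsd window 211 of the 250 bases are Ctsd exon, the near site among them. The sites are therefore shown in 30-base runs, with the motif in capitals.

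Ctsd, far site: tccccCACGTGacctgtatccagtcattct

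Ctsd, near site: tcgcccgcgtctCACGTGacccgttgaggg

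Ctsl site: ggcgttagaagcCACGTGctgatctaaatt

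Ctsa site: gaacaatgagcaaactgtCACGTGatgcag

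Ctsz and Cst7, which were higher in both late disease and recovery, are printed with their whole windows, chr2:174439040-174439289 on the minus strand and chr2:150570165-150570414 on the plus strand. Neither held any of the 4 motifs searched on both strands. The others were an AP-1 site (TGANTCA, in 6.75% of all windows and 0 of the 8 genes), a PU.1 core (GAGGAAG, in 10.6%, here in Ctsc only) and an interferon-type element (GAAA, any 2 bases, then GAAA, in 2.98%, here in Ctss only). A match is a description of the letters and no evidence of binding. The window of Ctss (chr3:95526536-95526785, plus strand) is shown with its interferon-type element in capitals, 21 to 12 bases before the start.

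Ctsz: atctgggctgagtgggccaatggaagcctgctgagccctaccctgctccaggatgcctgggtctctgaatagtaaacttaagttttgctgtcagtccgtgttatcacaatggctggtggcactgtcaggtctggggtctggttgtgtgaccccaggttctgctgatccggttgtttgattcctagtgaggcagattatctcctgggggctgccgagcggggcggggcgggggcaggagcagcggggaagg

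Cst7: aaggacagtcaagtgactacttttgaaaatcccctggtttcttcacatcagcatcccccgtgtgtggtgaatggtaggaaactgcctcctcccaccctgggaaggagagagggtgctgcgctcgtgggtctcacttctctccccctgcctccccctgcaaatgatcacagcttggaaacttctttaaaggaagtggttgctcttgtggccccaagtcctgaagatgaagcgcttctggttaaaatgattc

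Ctss: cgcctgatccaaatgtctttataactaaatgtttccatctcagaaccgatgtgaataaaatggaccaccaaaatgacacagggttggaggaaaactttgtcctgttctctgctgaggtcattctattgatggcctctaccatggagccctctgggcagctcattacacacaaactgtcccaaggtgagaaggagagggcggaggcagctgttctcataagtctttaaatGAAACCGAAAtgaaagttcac

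Levels of the 10 genes in control cells spanned over 3 orders of magnitude and were compared between genes on the TPM scale, which is per transcript length. Cst3 was highest at 64018 ± 12218 TPM (SD, n = 14), followed by Ctsd at 23641 ± 3376 and Ctss at 16786 ± 2517. Ctsz stood at 2985 ± 452 TPM, and each of these 4 was above the next gene in the order in 14 of 14 controls. Ctsb (1865 ± 284), Ctsh (1769 ± 336), Ctsa (1428 ± 309), Ctsc (1402 ± 221) and Ctsl (1050 ± 202) then lay close together. Ctsb exceeded Ctsh in 9 of 14 controls and Ctsa exceeded Ctsc in 7 of 14, so the order of these neighbours did not hold beyond the spread. Cst7 was far below the rest at 12.6 ± 9.70 TPM.

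**Figure D1:**
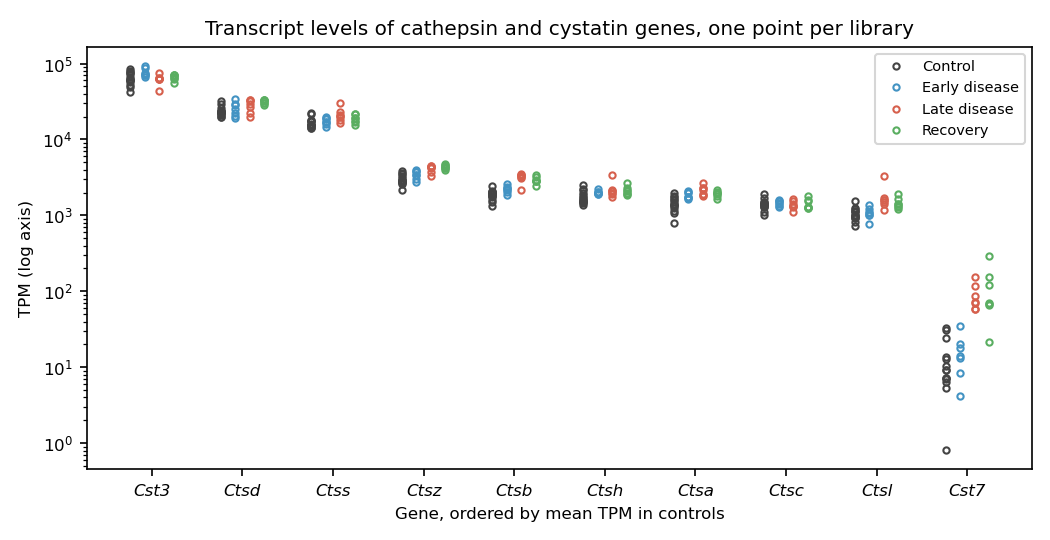
TPM (vertical, log axis) of the 10 genes (horizontal, ordered by their mean in controls), with 1 point per library in 4 colours for control, early disease, late disease and recovery. Cst3 is at the top with a control mean of 64018 TPM and Cst7 at the bottom with 12.6 TPM, where 7 late disease points lie above every control and Recovery 7, at 21.2 TPM, is the lowest of its group.

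Together the 10 genes made up 13.3 ± 0.98% of the TPM in the deposited table in controls, 13.8 ± 1.12% in early disease, 13.1 ± 1.26% in late disease and 13.8 ± 0.936% in recovery (SD). The joint share overlapped between all 4 groups.

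Cst7 showed the largest change of the set. It is on chromosome 2 (ENSMUSG00000068129.5, 150570415 to 150578944, plus strand). In controls its level ran from 0.516 to 20.7 CPM with a median of 5.27, and in early disease from 2.06 to 17.6 with a median of 7.20. In late disease it ran from 25.01 to 76.9 with a median of 38.9, so that 7 of 7 libraries lay above the highest control. In recovery it ran from 12.5 to 154 with a median of 44.2, and 6 of 7 libraries lay above the highest control, the exception being Recovery 7.

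The fitted change of Cst7 against control was 2.67 ± 0.40 (SE) on the log2 scale in late disease, 6.38-fold, and passed edgeR's quasi-likelihood test (adjusted p = 3.9e-05). In recovery it was 3.01 ± 0.41, or 8.06-fold, with an adjusted p of 1.01e-05. In early disease it was 0.16 ± 0.42 (adjusted p = 0.925). Controls differed among themselves by date: the 9 of code 0810 were at 4.71 ± 2.05 CPM and the 4 of code 1019 at 11.8 ± 8.24 CPM (SD). Against only the 5 controls whose codes also hold disease libraries, the late disease change was 1.94 ± 0.48 with an adjusted p of 0.0702, and with the date code as a term it was 2.07 ± 0.55 with an adjusted p of 0.187. Within code 1102 the 3 late disease libraries were at 62.0 ± 15.4 CPM and the 1 control at 12.4, and within code 1019 the 1 late disease library was at 25.01 CPM against 3.26 to 20.7 in 4 controls.

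Recovery 3, the library with the most Cst7, also had the most neutrophil marker RNA, 7151 CPM summed over 13 markers without Csf3r, which microglia also express. That sum was at most 334.2 CPM in any control, 327.8 in early disease and 318.2 in late disease, and ran from 218.8 to 7151 in recovery. Recovery 7, which had the least Cst7 of its group (12.5 CPM), stood at 4343 CPM of these markers, and Recovery 4, which had the lowest sum (218.8), stood at 63.5 CPM of Cst7. In late disease, where Cst7 was above every control, the median of the sum was 1.71 CPM, against 0.815 in controls. Without Recovery 3 the recovery change of Cst7 was 2.66 ± 0.40 (adjusted p = 9.53e-05).

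**Figure D2:**
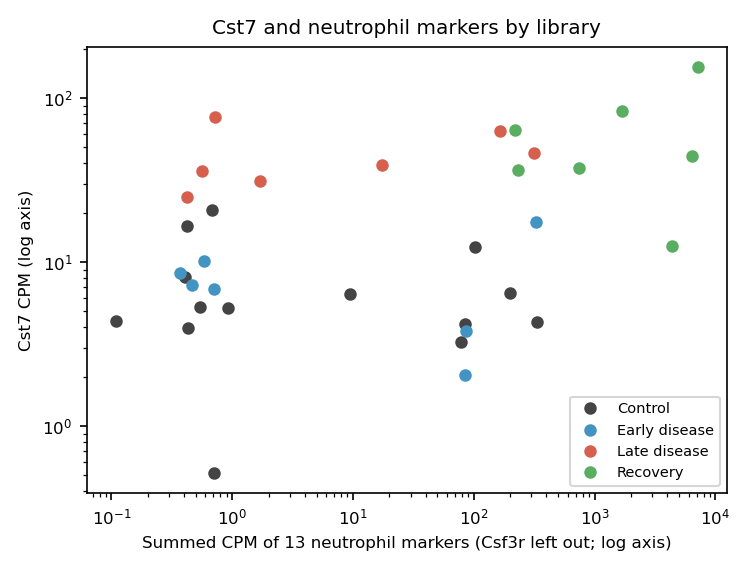
Cst7 CPM (vertical, log axis) against the summed CPM of 13 neutrophil markers (horizontal, log axis), with 1 point per library coloured by group. Late disease libraries have high Cst7 at marker sums of at most 318.2 CPM, while recovery libraries spread over 218.8 to 7151 CPM of markers, and Recovery 7 has 12.5 CPM of Cst7 at 4343 CPM of markers.

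Ctsb, an endo- and exopeptidase that is among the main cysteine cathepsins of phagocytes, was the second gene to rise in both stages. It lies on chromosome 14 (ENSMUSG00000021939.7, 63122462 to 63145923, plus strand). Controls ran from 3669 to 6523 CPM with a median of 5227 and early disease from 4328 to 6170 with a median of 5314. Late disease ran from 4409 to 9251 with a median of 8399, with 6 of 7 libraries above the highest control, and Late disease 1 within the control range. Recovery ran from 6804 to 8811 with a median of 7494, and 7 of 7 libraries lay above every control.

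Against control, Ctsb rose by 0.58 ± 0.10 on the log2 scale in late disease (1.49-fold, adjusted p = 2.13e-04, edgeR) and by 0.57 ± 0.10 in recovery (1.49-fold, adjusted p = 3.14e-04). The early disease difference was 0.01 ± 0.10 (adjusted p = 0.985). Without Late disease 1 the late disease change was 0.67 ± 0.08. With the date code as a term it was 0.51 ± 0.18 and no longer passed (adjusted p = 0.367), and against controls of shared dates it was 0.57 ± 0.17 (adjusted p = 0.125). The size of the change thus moved little while its error grew. Within code 1102 the late disease libraries were at 8249 ± 264 CPM (SD, n = 3), the early ones at 4980 ± 620 (n = 3) and the control at 4918. Within code 1019 the 1 late disease library stood at 4409 CPM, below the 2 early ones at 5737 and 6170. It lay within the range of the 4 controls, 3669 to 6523 CPM (5338 ± 1232, SD).

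**Figure D3:**
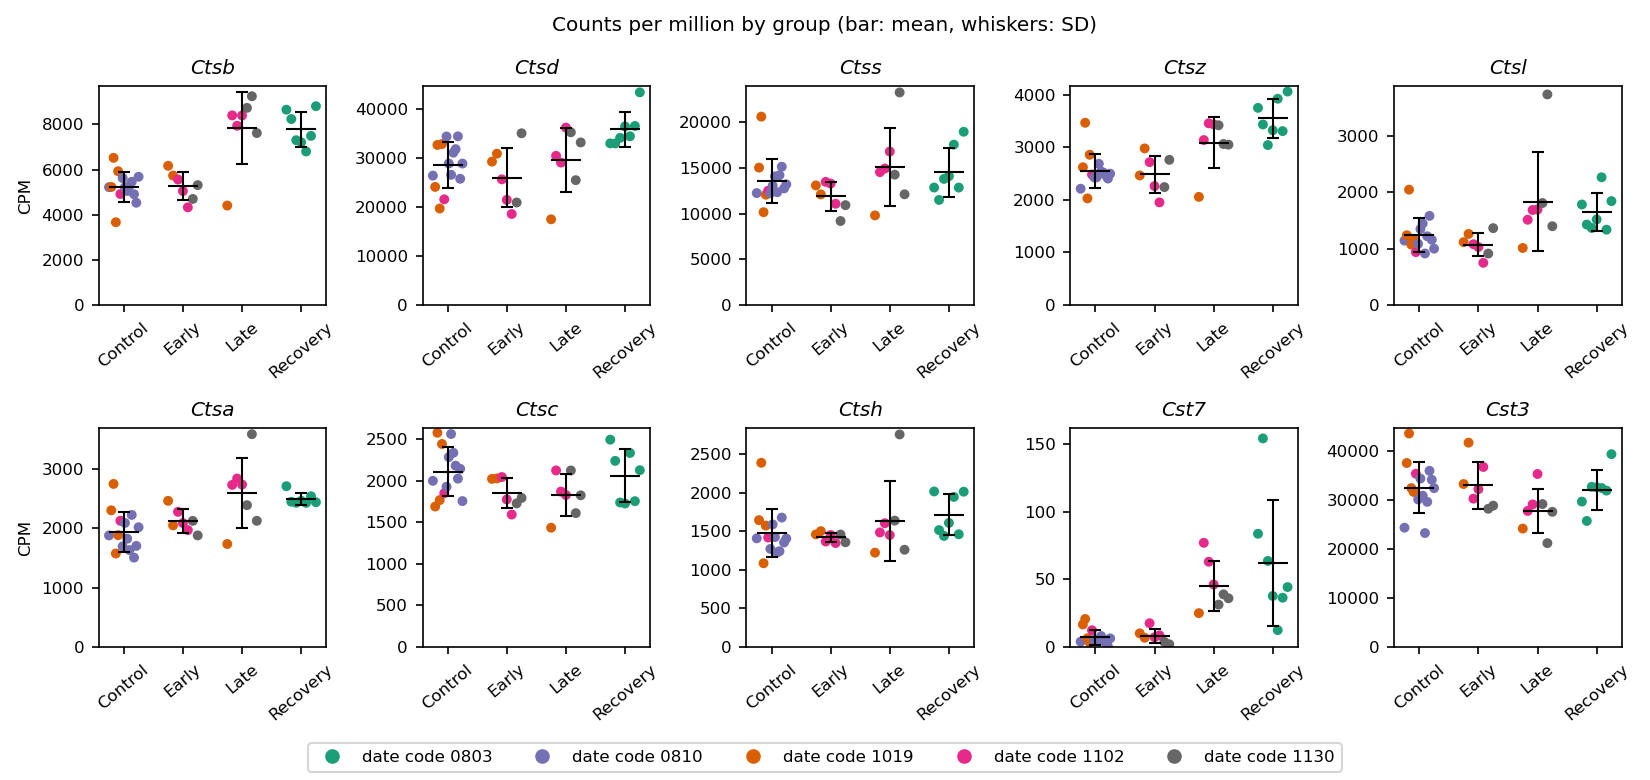
CPM (vertical, linear from 0) of each of the 10 genes in control, early disease, late disease and recovery (horizontal), with 1 point per library coloured by date code, the mean as a bar and the SD as whiskers. In the Ctsb panel the 7 recovery libraries lie between 6804 and 8811 CPM, above all 14 controls, and Late disease 1 sits at 4409 CPM.

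Ctsz, a carboxypeptidase that also binds integrins, rose in both stages as well. It is on chromosome 2 (ENSMUSG00000016256.10, 174427493 to 174439039, minus strand). Controls ran from 2029 to 3467 CPM with a median of 2490, late disease from 2057 to 3457 with a median of 3139, and recovery from 3043 to 4061 with a median of 3435. Late disease libraries all lay within the control range, whose highest value came from Control 11, while 3 of 7 recovery libraries lay above it.

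The change of Ctsz was 0.29 ± 0.09 in late disease (1.22-fold, adjusted p = 0.0294, edgeR) and 0.48 ± 0.09 in recovery (1.39-fold, adjusted p = 0.00104). The late disease call was lost without Late disease 3 (adjusted p = 0.0806), 4 (0.0628), 5 (0.077) or 6 (0.0517), and with the date code as a term the change was 0.18 ± 0.16 (adjusted p = 0.79). The recovery call held without any single library, with changes from 0.45 to 0.53, and against the 3 wild-type controls on the same diet schedule (0.61 ± 0.14, adjusted p = 0.023).

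Ctsa, the protective protein of beta-galactosidase and neuraminidase, is on the same chromosome (ENSMUSG00000017760.13, 164832873 to 164841032, plus strand). Controls ran from 1503 to 2742 CPM with a median of 1878, and late disease from 1732 to 3578 with a median of 2725. The 7 recovery libraries ran from 2423 to 2703 CPM with a median of 2442, all above the control median but none above the highest control. The change was 0.41 ± 0.10 in late disease (1.33-fold, adjusted p = 0.00524, edgeR) and 0.36 ± 0.10 in recovery (1.29-fold, adjusted p = 0.0307). With the date code as a term the late disease change of Ctsa was 0.18 ± 0.17 (adjusted p = 0.808), and with the covariate for missing TPM it was 0.26 ± 0.12 (adjusted p = 0.313). In recovery Ctsa did not pass against wild-type controls (0.29 ± 0.12, adjusted p = 0.22), with the covariate (0.25 ± 0.12, adjusted p = 0.322) or against diet-matched controls (0.40 ± 0.15, adjusted p = 0.144). The recovery call was lost without any one of Recovery 2, 5, 7, 8 and 9 or Controls 2 and 5, with adjusted p from 0.0504 to 0.0722.

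Ctsl, an endopeptidase of broad specificity, is on chromosome 13 (ENSMUSG00000021477.8, 64359337 to 64370890, minus strand). Controls ran from 912 to 2042 CPM with a median of 1158, late disease from 1010 to 3727 with a median of 1681, and recovery from 1334 to 2261 with a median of 1514. Late disease 6 stood at 3727 CPM while the other 6 of its group reached at most 1805 and lay within the control range. The late disease change was 0.56 ± 0.17 (1.47-fold, adjusted p = 0.0216, edgeR) with that library and 0.29 ± 0.14 (adjusted p = 0.192) without it. Late disease 6 also had the most monocyte marker RNA of its group, 174.3 CPM against 31.5 to 67.8 in the others, and the lowest sum of homeostatic microglia markers, 49599 CPM; their part in the result was not tested. In recovery the Ctsl difference was 0.41 ± 0.17 and did not pass (adjusted p = 0.171).

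Of the 10 genes, 5 rose in late disease and 0 fell, where 9.01% of the 13501 genes tested rose, 6.39% fell and 15.4% changed in either direction. In recovery 4 rose and 0 fell, where 2.87% of genes rose, 1.1% fell and 3.98% changed. The median log2 change over the 10 was 0.22 in late disease and 0.35 in recovery, beside 0.02 and -0.01 over all genes tested. The 2 comparisons share their controls and are given side by side only.

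**Figure D4:**
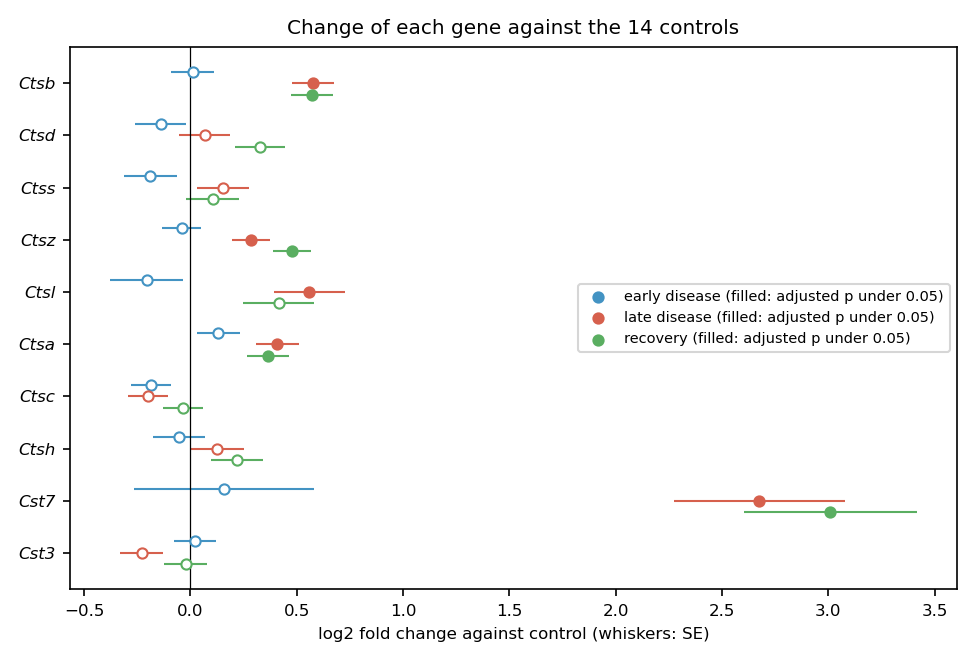
Log2 fold change against the 14 controls (horizontal, whiskers SE) of each of the 10 genes (vertical) in early disease, late disease and recovery, with filled points where the adjusted p was under 0.05. No early disease point is filled, 5 late disease and 4 recovery points are, and Cst7 stands apart at 2.67 and 3.01.

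The remaining 5 genes did not pass against control in any group by edgeR or DESeq2. By limma on log2(TPM + 1) Ctss passed in late disease (0.32 ± 0.10, adjusted p = 0.0262) and Ctsd in recovery (0.42 ± 0.11, adjusted p = 0.0175). Ctsl also passed in recovery by limma (0.49 ± 0.15, adjusted p = 0.0411), so that limma called 6 of the 10 in each comparison. Of 13188 genes limma called 2589 higher and 195 lower in late disease, and 634 higher and 58 lower in recovery. Ctsd, the main aspartic protease of the lysosome (chromosome 7, ENSMUSG00000007891.13, 142375911 to 142388038, minus strand), ran from 19690 to 34412 CPM in controls with a median of 28866 and from 32960 to 43386 in recovery with a median of 34422. All 7 recovery libraries were above the control median and 4 above the highest control. Its recovery difference was 0.33 ± 0.12 (adjusted p = 0.12, edgeR), and in late disease, from 17486 to 36199 CPM, it was 0.07 ± 0.12 (adjusted p = 0.763).

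Ctss, which stays active at neutral pH and cleaves the invariant chain of MHC class II (chromosome 3, ENSMUSG00000038642.8, 95526786 to 95556403, plus strand), differed by 0.15 ± 0.12 in late disease and 0.10 ± 0.12 in recovery (adjusted p = 0.441 and 0.732). Its values ran from 10161 to 20626 CPM in controls and from 9812 to 23275 in late disease, the highest again being Late disease 6. Ctsh, an aminopeptidase (chromosome 9, ENSMUSG00000032359.12, 90054152 to 90076089, plus strand), differed by 0.13 ± 0.12 and 0.22 ± 0.12 (adjusted p = 0.539 and 0.368), and it too was highest in Late disease 6 at 2752 CPM. Without that library the late disease difference of Ctsh was -0.04 ± 0.11.

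Ctsc, the dipeptidyl peptidase that activates serine proteases of granules (chromosome 7, ENSMUSG00000030560.14, 88278085 to 88310888, plus strand), differed by -0.20 ± 0.09 in late disease (adjusted p = 0.144) and -0.03 ± 0.09 in recovery (adjusted p = 0.903). Cst3, the most abundant of the set (chromosome 2, ENSMUSG00000027447.6, 148871722 to 148875692, minus strand), had a median of 32369 CPM in controls and 27720 in late disease, where 6 of 7 libraries were below the control median. The difference was -0.23 ± 0.10 and did not pass (adjusted p = 0.122). It passed only without Late disease 4, at -0.30 ± 0.10 and an adjusted p of 0.0466. In recovery Cst3 differed by -0.02 ± 0.10 (adjusted p = 0.949), and so the 2 cystatins did not move alike.

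In early disease 0 of the 10 genes passed by edgeR, where 0.00741% of genes did, and 0 had an unadjusted p under 0.05. DESeq2 also called 0. The differences ran from -0.20 ± 0.17 for Ctsl to 0.16 ± 0.42 for Cst7. By limma on log2(TPM + 1), a scale on which the median of all genes was shifted by 0.22, Ctsa was called at 0.40 ± 0.12 (adjusted p = 0.0432). That fit called 1016 of 13188 genes higher and 40 lower, so a call there sets Ctsa little apart.

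Late disease was next set against early disease, both being rNLS8 mice without DOX that share 3 date codes. Ctsb and Cst7 rose, 2 of 10, where 0.741% of all genes changed. Ctsb rose by 0.57 ± 0.12 (1.48-fold, adjusted p = 0.0168, edgeR) and Cst7 by 2.52 ± 0.51 (5.73-fold, adjusted p = 0.0135). Ctsl had a difference of 0.76 ± 0.20 that just missed (adjusted p = 0.0565). It passed by DESeq2 (adjusted p = 0.0117) and without Late disease 1 (0.0185), Late disease 7 (0.0349) or Control 11 (0.0388).

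With the date code as a term, where 0.227% of genes were called, Cst7 kept its call in this comparison at 2.67 ± 0.43 (adjusted p = 0.00656), while Ctsb was at 0.54 ± 0.14 (adjusted p = 0.0807). Ctsb also lost its call without Early disease 5 (adjusted p = 0.0541) or 6 (0.0694). Ctsz gained one without Late disease 1, at 0.40 ± 0.10 (adjusted p = 0.0298). Within code 1130 the 3 late disease libraries held 35.4 ± 3.84 CPM of Cst7 and the 2 early ones 2.92 ± 1.21 CPM (SD). In the same code Ctsb stood at 8536 ± 834 and 5008 ± 434 CPM. Late disease was thus above early disease in Ctsb within codes 1130 and 1102 and below it within code 1019, whose 1 late disease library is Late disease 1. In code 1130 the 3 late disease libraries were male and the 2 early ones female, so stage and sex cannot be told apart there.

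Between recovery and late disease 0 of the 10 genes passed by edgeR, where 0.585% of all genes did, and 0 had an unadjusted p under 0.05; DESeq2 and limma also called 0. Ctsb differed by -0.0040 ± 0.12, with a mean of 7789 ± 778 CPM in recovery and 7823 ± 1594 in late disease (SD). Ctsz differed by 0.19 ± 0.11 (adjusted p = 0.365), Ctsd by 0.26 ± 0.14 (adjusted p = 0.35) and Cst7 by 0.34 ± 0.48 (adjusted p = 0.786). A difference that misses the threshold does not show equal levels, and the 2 groups share no date code.

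Controls of the 2 genotypes were compared in a fit of their own. Of the 10 genes 0 passed by edgeR, where 0.00805% of 12425 genes did, and 0 had an unadjusted p under 0.05; DESeq2 also called 0. Cst7 was at 4.80 ± 2.55 CPM in the 6 rNLS8 controls and 9.13 ± 6.62 in the 8 wild-type ones, a log2 difference of -0.86 ± 0.52 (adjusted p = 0.72). Among controls of code 0810 alone the difference was 0.12 ± 0.64. Cst7 was at 4.52 ± 0.654 CPM in the 3 wild-type mice returned to DOX, 11.8 ± 8.24 in the 4 after 2 weeks without it, and 12.4 in the 1 after 6 weeks, kinds that also differ in date.

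In the test of whether the change against control differed by sex, 0 of the 10 genes passed by edgeR or by DESeq2, and 0% of all genes passed by edgeR in each group. At an unadjusted p under 0.05, Ctsz came up in early disease, Ctsa and Cst3 in late disease, and Cst3 and Ctss in recovery. The interaction for Cst7 was -1.45 ± 0.78 in late disease and 1.09 ± 0.78 in recovery, each under 2 standard errors. In late disease the 3 females all have code 1102 and the 4 males codes 1019 and 1130, so sex and date cannot be told apart there.

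How firmly the 5 late disease calls stood depended on the controls used. Ctsb and Cst7 passed against the 8 wild-type controls alone (0.55 ± 0.12 and 2.38 ± 0.45, adjusted p = 0.00855 and 0.00224), while Ctsa, Ctsl and Ctsz did not (adjusted p = 0.0789, 0.106 and 0.147). Adding the share of TPM that is missing from the table as a covariate, where 1.87% of genes were called, Ctsb and Cst7 passed again (adjusted p = 0.0166 and 0.0317). With the date code as a term only 0.0303% of genes were called and 0 of the 10, and against controls of shared dates 0.397% and 0 of the 10. In recovery, where no fit with date can be had, Cst7 and Ctsz passed against the 3 diet-matched wild-type controls (2.86% of genes called), and Ctsb was at 0.55 ± 0.16 (adjusted p = 0.0647).

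**Figure D5:**
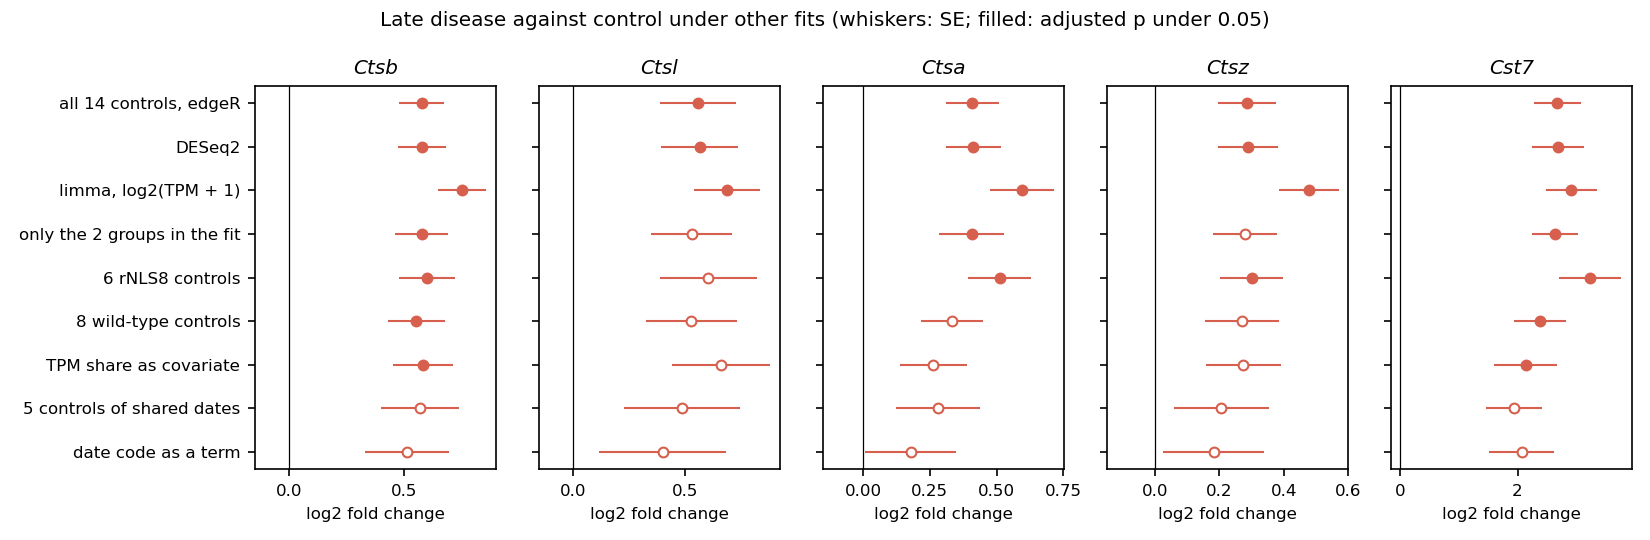
Log2 fold change (horizontal, whiskers SE) of the 5 genes called in late disease against control, 1 panel per gene, under 9 fits (vertical), filled where the adjusted p was under 0.05. All points lie to the right of 0, and with the date code as a term all 5 are open, Ctsb at 0.51 and Cst7 at 2.07.

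Other cathepsins and cathepsin inhibitors were mostly silent in these cells. Of 14 further cathepsin genes, 4 were expressed enough to be tested, and 7 had no count in any control. Ctse, an aspartic protease of immune cells, rose in late disease by 2.49 ± 0.49 (adjusted p = 9.3e-04, edgeR), from 6.90 ± 4.43 CPM in controls to 41.9 ± 67.9 (SD). Late disease 6 stood at 190.5 CPM while the group's median was 11.8, and without that library the change was 1.37 ± 0.44 (adjusted p = 0.0407). Ctso fell by 0.40 ± 0.10 (adjusted p = 0.00623, edgeR). So 1 of the 4 rose and 1 fell, where 9.01% of all genes rose and 6.39% fell. Ctso was not called by limma or with the covariate for missing TPM, while Ctse was. With the date code as a term or controls of shared dates 0 of the 4 passed. In recovery 0 of the 4 passed, with 1 at an unadjusted p under 0.05.

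Of 32 further cystatins, stefins and serpins, 26 were in the table and 4 were tested. Cstb, the cytosolic stefin B that inhibits cathepsins B, L, S and H, rose by 0.41 ± 0.10 in late disease (adjusted p = 0.00656, edgeR) and by 0.44 ± 0.10 in recovery (adjusted p = 0.0092), from 47.1 ± 7.40 CPM in controls to 63.0 ± 13.3 and 64.1 ± 7.18. Late disease 6 stood at 86.0 CPM of Cstb against a group median of 59.1. Without that library the late disease change was 0.33 ± 0.10 (adjusted p = 0.0345, edgeR). Without Control 6, Recovery 3 and Late disease 6 together it was 0.31 ± 0.11 and did not pass (adjusted p = 0.0594, edgeR). Serpinb1a, a neutrophil elastase inhibitor, rose in recovery (adjusted p = 1.19e-04, edgeR), at 17.3 ± 17.5 CPM against 0.213 ± 0.395 in controls, in the group where neutrophil markers rose. Its median was 0 CPM in controls, early disease and late disease and 11.2 CPM in recovery. It reached the test mainly through the group where it was high, so its call is given as a description. Recovery 3, which had the most neutrophil marker RNA, also had the most Serpinb1a, 43.2 CPM.

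Among 17 genes that process and sort cathepsins, all tested, 6 rose in late disease and 0 fell, where 9.01% of all genes rose, and their median was 0.24, beside 0.02 over all genes. Without Late disease 6 only 3 passed (Gnptab, Psap and Glb1), without Late disease 3 it was 4, with the share of TPM missing from the table as a covariate 1, and with the date code as a term or controls of shared dates 0. The 4 with the largest change were Gnptab, which makes the mannose 6-phosphate tag (0.60 ± 0.15), Psap, the saposin precursor (0.55 ± 0.13), Neu1 (0.49 ± 0.15) and Glb1 (0.44 ± 0.10), the last pair encoding the partners of cathepsin A. Without Late disease 6, at 247.7 CPM of Neu1 against a group median of 96.6, Neu1 was at 0.21 ± 0.10 and did not pass (adjusted p = 0.186). In recovery Gnptab (0.57 ± 0.15) and Psap (0.51 ± 0.13) rose, 2 of 17, where 2.87% of all genes rose, but Gnptab did not pass without Recovery 2 or 4 (adjusted p = 0.0799 and 0.053, edgeR) nor Psap without Recovery 9 (0.0711). Of 14 tested regulators of lysosomal genes 1 rose in late disease and 0 fell, where 9.01% of all genes rose. It was Mcoln1, the lysosomal calcium channel, at 0.48 ± 0.10 (adjusted p = 0.0021, edgeR). With the covariate for missing TPM, the date code as a term or controls of shared dates, 0 of the 14 passed. Tfeb and Tfe3, transcription factors of this list known to bind such E-boxes and named here after their values were seen, differed by -0.12 ± 0.09 and 0.03 ± 0.09 (adjusted p = 0.362 and 0.859).

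Cathepsin S acts on the invariant chain, and MHC class II genes of that pathway were among those called. Of 8 tested, 3 rose in late disease and 4 in recovery by edgeR, where 9.01% and 2.87% of all genes rose. With the date code as a term 0 of 7 passed in late disease, and against controls of shared dates 1 of 7, Cd74. Cd74, the invariant chain, went from 66.4 ± 22.1 CPM in controls to 254 ± 102 in late disease and 371 ± 63.0 in recovery, changes of 1.96 ± 0.24 and 2.50 ± 0.24 (adjusted p = 1.96e-06 and 3.25e-08, edgeR). H2-Aa rose by 2.48 ± 0.47 and 3.74 ± 0.48, and H2-Ab1 by 1.14 ± 0.30 and 2.15 ± 0.29, both MHC class II chains. Recovery also called H2-Eb1, a further class II chain, at 2.55 ± 0.51.

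Of the 9 serine proteases that cathepsin C can activate, 0 were expressed enough to be tested. Their summed level was at most 0.501 CPM in a control and 0 in every late disease library. In recovery it reached 12.4 CPM, in Recovery 3, and Elane and Prtn3 were among those with counts.

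Across all 35 libraries the 10 genes were compared by Pearson's r of log2 CPM, which also carries group, date and depth and is given as a description. Of 45 pairs 39 had a positive r, the highest being Ctsb with Ctsz (0.88). Cst3 stood apart, with r from -0.15 to 0.19 against the other 9. Among all genes tested, those most like Cst7 were Spp1, which encodes osteopontin (0.89), Ccl3 (0.84) and Slc2a6 (0.82). Those most like Ctsb were the lysosomal enzyme gene Gusb (0.91), the tetraspanin gene Cd63 (0.91) and Ctsz itself.

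Ctsz had Pld3 (0.92), Ctsb and Mif (0.86) as its nearest, and Ctsd had Cadm1 (0.85), Creg1 (0.85) and Scarb2 (0.81). The nearest genes of Ctsl were Fth1 (0.90), Echs1 (0.86) and Rpl7 (0.85), and those of Ctsa were Rpl14, Lrpap1 and Bag1 (0.82, 0.81 and 0.81). Ctss was nearest to Npc2, Tpt1 and Rpl23a (0.88, 0.83 and 0.82) and Ctsh to Rpl13, Ifi30 and Uqcrc1 (0.86, 0.85 and 0.84). Ctsc and Cst3 had the weakest neighbours, Pdia5, Tmed10 and Cd81 at 0.72, 0.70 and 0.68, and Spag7, Tnfaip8l2 and Aif1 at 0.75, 0.75 and 0.71.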

How the data were processed

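CD11b and CD45 sorted spinal cord cells were profiled by RNA sequencing with SMART-Seq Ultra Low-input and NexteraXT kits, per the labels' protocols. The authors deposited expected counts and TPM for 45706 genes and 35 libraries. RSEM, DESeq2 and mm10 are named per the submitters' processing notes, with settings and versions not given in the sources used here. These kits do not mark strand. RSEM shares reads of near-identical copies by estimation. Depth was 13.9 M to 20.4 M counts per library; without molecular identifiers these are fragments, not molecules.

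Expected counts were rounded and tested with edgeR 4.0.16 in R 4.3.3: a quasi-likelihood F test, TMM, its filter on low counts by group (13501 genes kept), with group and sex as terms across the 35 libraries. A gene passed at a Benjamini-Hochberg adjusted p under 0.05 over all genes. SE was derived from the F statistic, and SD is over libraries. CPM used TMM-adjusted library sizes. Alternatives were DESeq2 1.42.0, limma 3.58.1 on deposited TPM after log2 with 1 or 0.1 added (TPM of at least 1 in 6 libraries or more), other controls, and covariates. Scripts were tested on simulated data for late disease against control. There edgeR recovered 32 of 100 genes changed 1.5-fold and 77 of 100 changed 3-fold, so a small change can be missed.

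Groups follow the phenotype label. Sex in the labels disagreed with the deposited design table for 2 controls, and the labels' sex was kept. Gene positions are GENCODE's on mm10, matched by identifier. The 10 genes, the gene lists and the motifs were chosen with earlier results of these data known. Each of the 10 is named. From the lists at most the 4 largest changes past the test per direction are named, and for likeness the 3 genes with the highest r.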

Additional observations from a re-analysis of the deposited data

Results flagged for a closer look

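Within the groups of 7 libraries, 30 combinations of gene and group were searched for a lone library far from the rest, and 6 were found. Chance gives about 1 in 20 groups. In late disease, Late disease 1 was low in Ctsb, at 4409 CPM against 7620 to 9251 in the other 6, and in Ctsz, at 2057 CPM against 3051 to 3457. Late disease 6 was high in Ctsl, at 3727 CPM against 1010 to 1805, and in Ctsh, at 2752 CPM against 1221 to 1637. In recovery, Recovery 9 was high in Ctsd, at 43386 CPM against 32960 to 36527, and Recovery 2 was high in Ctsa, at 2703 CPM against 2423 to 2534.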

How the results depend on the processing

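No result reversed its direction under any alternative past the test, and 0 of the called members changed sign. Among all 2660 values of members compared with the main ones, 110 changed sign, all of them of differences that had not passed. Rerun with relative log expression size factors, without a sex term or with the design table's sex, the number of the 10 genes called was within 1.5 times the main number in every comparison. The cause of the changes that follow was not tested. In some of these fits fewer libraries entered.

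Late disease against control called 0 of the 10 genes and 4 genes with the date code as a term, 0 and 52 against controls of shared dates, 2 and 1009 against wild-type controls, 2 and 252 with the TPM share as covariate, and 3 and 959 with only the groups compared. Without Control 6, Recovery 3 and Late disease 6 together, an alternative chosen after seeing the data, it called 3 and 1146. Recovery against control called 862 genes by DESeq2, 293 against wild-type controls, 253 with the covariate, and 2 of the 10 against diet-matched controls. Late against early disease called 361 genes by DESeq2, 51 without the low-count filter, 1 of the 10 and 39 genes by limma on log2(TPM + 0.1), 1 and 30 with the date code, 153 with the covariate, 1 and 15 with only the groups compared, and 1 and 29 without the 3 libraries.

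Early disease against control, with 1 gene in the main test, called 154 by DESeq2, 1056 and 933 by limma with pseudocounts of 1 and 0.1 (1 of the 10 each), 735 against rNLS8 controls, 3 without the 3 libraries, and 0 without the filter, with the date code, with controls of shared dates, wild-type or diet-matched, or with the covariate. Recovery against late disease called 360 by DESeq2, 14 with only the groups compared and 41 without the 3 libraries. DESeq2 called 48 between control genotypes and 21, 11 and 12 for the sex interactions in early disease, late disease and recovery. On the log2(TPM + 1) scale the median of all genes moved to 0.22 in early disease, 0.18 in late disease and -0.12 for recovery against late disease, and the calls were mostly higher ones, 2589 higher and 195 lower in late disease, against 1217 and 863 in the main test. Recovery had 634 higher and 58 lower there, against 388 and 149.

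Leaving out 1 library at a time gave 0 of the 10 and 0 to 77 genes in early disease, 3 to 5 and 1327 to 2265 in late disease, 3 to 4 and 329 to 750 in recovery, 1 to 4 and 16 to 235 for late against early, 0 and 6 to 223 for recovery against late, and 0 and 0 to 4 between control genotypes. The replicate numbers do not pair the mice: of 37 pairs with the same number, 3 had deviations correlated above 0.1, with a median r of 0.0121, and 2 of 30 libraries correlated best with their own number. With a replicate block, 613 genes were called in early disease, 1432 higher and 982 lower in late disease, 912 in recovery, 29 (1 of the 10, Cst7) for late against early and 2 for recovery against late. In late disease Ctsl was not called with the block (adjusted p = 0.0541, edgeR). Depth did not limit the cathepsins, each with at least 12164 counts in every library, while Cst7 had 8 counts in Control 8.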
